A study of Rattus norvegicus with 8 samples.

Results

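Globins, red cell membrane proteins and regulators of red cell formation were followed through 7 genes in rat whole blood. The globin genes were Hbb and Hba-a3, the membrane genes Slc4a1, Gypc and Rhd, and the regulators Hemgn and Klf1. Taken were all probe sets that the platform annotation assigned to exactly 1 of these symbols, which gave 8 of 31042 probe sets, 1 for each gene and a second for Slc4a1. Probe sets with 1 symbol named 14217 genes in all. The arrays came from male Wistar rats bought at 7 weeks of age and kept for 1 week before the diets began. Of these, 4 arrays were from rats given a high-fat diet (Quick fat) over 8 weeks and 4 from rats given a normal diet over the same time. The study fed 10 rats per diet. The 4 arrays of a diet are labelled as biological replicates, with no word on how those rats were picked. The rats had fasted overnight before bleeding, and the diet with mulberry leaf powder is not analysed here.

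Hemoglobin is a tetramer of alpha and beta globin chains, and globin mRNA dominates the RNA that young red cells still carry after they lose their nucleus. The membrane of these cells is held to a spectrin skeleton by band 3 (Slc4a1) through ankyrin and by glycophorin C (Gypc) through another linker protein. The globin genes and many genes of the membrane are switched on in red cell formation by transcription factors, among them Klf1 and Gata1. In blood, a difference in such a transcript can come from the number of young red cells or from the RNA in each of them. It can also come from other blood cells where these carry the transcript. These sources cannot be told apart here.

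Klf1 is known to bind CACCC-type sequences, and erythroid promoters are also known for GATA and CCAAT boxes. The 250 bases before the annotated start are therefore shown for 4 of the genes, from RefSeq on build GRCr8, 5′ to 3′ along the gene. Capitals mark every match on either strand to CCNCNCCC, to a GATA box (GATA with A or T before it and A or G after it) or to CCAAT.
Hbb promoter, chr1:167663722-167663971, minus strand: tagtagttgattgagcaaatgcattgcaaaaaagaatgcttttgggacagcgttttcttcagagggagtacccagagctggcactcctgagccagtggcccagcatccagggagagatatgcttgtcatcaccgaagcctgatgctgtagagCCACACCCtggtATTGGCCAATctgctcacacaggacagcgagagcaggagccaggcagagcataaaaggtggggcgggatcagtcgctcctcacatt
Hba-a3 promoter, chr10:15816944-15817193, minus strand: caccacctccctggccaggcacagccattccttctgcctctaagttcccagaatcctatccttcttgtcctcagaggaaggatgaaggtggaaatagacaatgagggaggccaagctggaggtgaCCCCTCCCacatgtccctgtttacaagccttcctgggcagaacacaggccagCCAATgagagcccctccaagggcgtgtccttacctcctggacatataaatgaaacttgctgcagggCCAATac
Rhd promoter, chr5:152370950-152371199, plus strand: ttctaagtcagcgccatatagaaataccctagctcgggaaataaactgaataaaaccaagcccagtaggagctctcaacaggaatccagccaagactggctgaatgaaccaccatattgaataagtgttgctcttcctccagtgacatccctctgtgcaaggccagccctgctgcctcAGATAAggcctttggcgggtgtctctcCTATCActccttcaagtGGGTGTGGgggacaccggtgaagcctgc
Klf1 promoter, chr19:40158652-40158901, minus strand: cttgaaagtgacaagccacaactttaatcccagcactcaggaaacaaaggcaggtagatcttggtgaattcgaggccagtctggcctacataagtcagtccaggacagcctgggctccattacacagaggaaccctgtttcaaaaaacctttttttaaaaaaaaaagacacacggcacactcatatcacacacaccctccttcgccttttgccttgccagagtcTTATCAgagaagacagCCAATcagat

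Both globin promoters held 1 match to CCNCNCCC and 2 to CCAAT, and none to the GATA letters. In Hbb the CCACACCC match lay 98 to 91 bases before the start, and a pair of CCAAT boxes on opposite strands followed it at 86 to 77 bases. These 2 boxes adjoin and appear as 1 run of capitals. The Rhd promoter held 2 GATA boxes, the nearer one 45 to 40 bases before the start, and a CCNCNCCC match on the minus strand at 28 to 21 bases. The Klf1 promoter held a GATA box at 26 to 21 bases and a CCAAT box at 10 to 6. Promoters were found for 6 of the 7 genes, with 7 starts in all. The Gypc promoter, not printed, had 2 GATA matches that overlap by 1 base and 1 to CCNCNCCC. Of the 2 starts of Hemgn, one had 1 match to CCNCNCCC and no GATA box, and the other had 2 GATA boxes and no CCNCNCCC. Such letters are common. Of 33469 promoter windows of this length, 42.8% held a match to CCNCNCCC, 34.0% to CCAAT and 27.0% to a GATA box.

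All arrays had a median of 6.60, and levels ran from 5.19 to 15.25 on what reads as a log2 intensity scale. The authors' values barely moved between rats. Over the 8 arrays, SDs had a median of 6.07e-06 among all probe sets and a maximum of 0.139. Differences are thus not log2 ratios of RNA amount, no fold changes are given, and the size of a difference is stated in deposited units and as a multiple of the pooled SD within the diets of that probe set (within-group SDs). Markers of blood cells were present. The medians of the erythroid, T cell, neutrophil and platelet lists were 9.03, 9.06, 8.34 and 9.83. Those of the B cell, natural killer cell and monocyte lists were 8.20, 7.73 and 8.0, and 0 of 4 liver markers lay above the median of all probe sets (list median 6.15).

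Most member probe sets were among the brightest in blood. Hbb, the adult beta globin chain, had a level of 15.09 and stood above 99.99% of probe sets, and Hba-a3, an alpha globin, followed at 13.71 (99.91%). The brighter Slc4a1 probe set had 11.05 (99.35%) and the dimmer one 8.48 (95.44%). Hemgn, a nuclear protein of blood cell precursors, had 10.06 (98.79%), Rhd, an Rh protein of the red cell membrane, 9.08 (97.41%), and Klf1, the erythroid Krüppel-like factor, 8.97 (97.18%). Gypc was the dimmest at 7.27 (79.18%). In all, 7 of the 8 probe sets lay above the 95th percentile of level, and 6 when ranked among probe sets with 1 symbol. A probe set's brightness also depends on its probes, so these ranks give no order of RNA amount between the genes. The ID of the Hbb probe set (1367553_x_at) marks probes that can also match other transcripts, and that of Hemgn (1387756_s_at) probes shared between transcripts. Signal in these sets, and between the near-identical globin genes, may therefore be pooled.

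**Figure D1:**
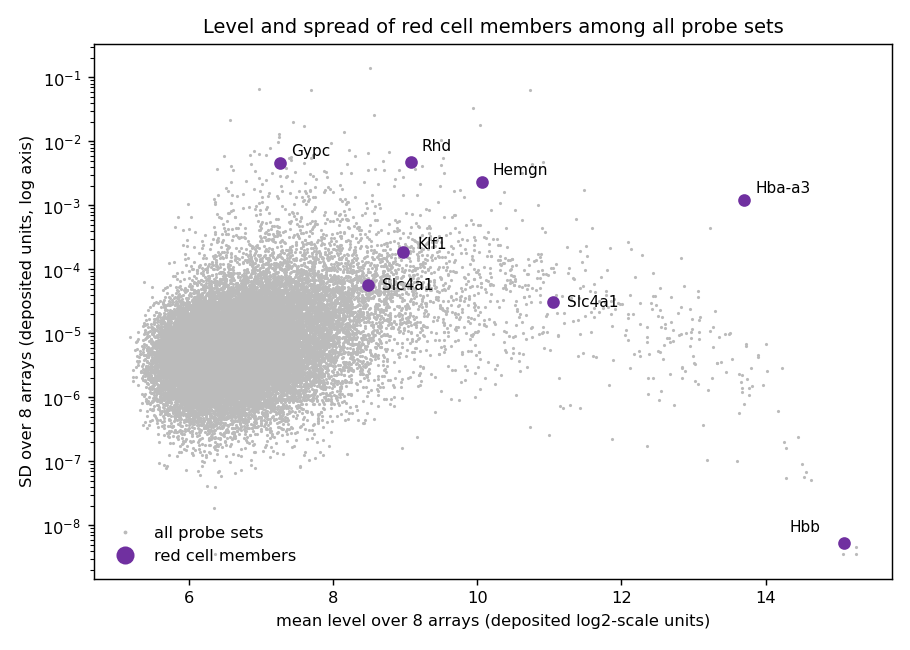
Mean level (horizontal axis, deposited log2-scale units) against SD over 8 arrays (vertical log axis, deposited units) for all probe sets with an SD above 0 (grey) and the 8 member probe sets (purple). Hbb sits at 15.09 with an SD of 5.35e-09, while Hba-a3, Gypc, Rhd and Hemgn have SDs of 0.00121 to 0.00486.

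The members differed widely in how much they varied between rats. Hbb was nearly fixed, and the 4 high-fat and the 4 normal arrays held the same 2 values, 15.08838385 and 15.08838386. Its SD of 5.35e-09 was lower than that of almost any probe set (0.0193rd percentile). All 5 probe sets with a mean above 15 had SDs of at most 5.35e-09, so at the top of the scale the deposited values hardly differed between rats. Rhd (SD 0.00486), Gypc (0.00458), Hemgn (0.00230) and Hba-a3 (0.00121) all lay above the 99th percentile of SD, which was 4.13e-04. Klf1 had an SD of 1.86e-04, the dimmer Slc4a1 probe set 5.77e-05 and the brighter one 3.14e-05. The brightest 5% of all probe sets had a median SD of 3.48e-05. Part of this spread came from single rats, as the values by rat show.

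Between the diets, no member passed the test. With limma (Benjamini-Hochberg over 31042 probe sets), 0 of 8 member probe sets passed an adjusted p of 0.05, against 0% of all probe sets, and each had an adjusted p of 1. At an unadjusted p under 0.05 there were 3, all higher in the high-fat group (Slc4a1, Hemgn and Klf1). Of all probe sets, 2.25% had such a p, 0.950% with the high-fat and 1.30% with the normal group higher. The high-fat mean was the higher one in 7 of 8 and equal in Hbb, where 46.6% of all probe sets had a higher high-fat mean. The median member stood 0.771 within-group SDs above normal, and the median of all probe sets was -0.0479. Some of these directions changed with the scaling. After an added quantile normalization, 2 of 8 members were higher (Gypc and Rhd). Hbb, Hba-a3 and the brighter Slc4a1 probe set stood at 0, which is no direction. Hemgn stood at -0.00142, Klf1 at -2.81e-04 and the dimmer Slc4a1 probe set at -5.54e-04 in deposited units. In the deposited values, Hemgn, Klf1 and the dimmer Slc4a1 probe set had differences of 0.00360, 2.35e-04 and 3.77e-05. The added step sets each value by its rank in the array, so a probe set with the same rank in every array gets a difference of 0. The cause of the reversals was not tested.

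Among the globins, Hba-a3 had levels of 13.70433, 13.70455, 13.70455 and 13.70799 in high-fat rats 1 to 4, against 13.70465, 13.70451, 13.70470 and 13.70481 in normal rats 1 to 4. High-fat rat 4 stood above all others, and the 3 other high-fat rats lay within or below the normal range. The mean was 13.70535 ± 0.00176 (SD, n = 4) in the high-fat group and 13.70467 ± 1.24e-04 in the normal group, a difference of 6.88e-04 ± 8.30e-04 (SE). Without high-fat rat 4 the difference was -1.90e-04. That rat also had the highest scaled levels (SDs from each gene's mean over 8 arrays, averaged over a list) of natural killer cell markers, 2.22, against -0.268 to -0.174 in the other high-fat rats and -0.894 to 0.210 in normal rats, with all 5 of 5 markers measured. Its monocyte markers, also 5 of 5, stood at 2.07, against -0.463 to -0.0897 in the other high-fat rats and -0.40 to -0.165 in normal rats. Its platelet markers (5 of 6 measured) were the lowest, at -1.66, against 0.182 to 0.622 in the other high-fat rats and -0.305 to 0.507 in normal rats. Its erythroid markers stood at -0.440, against 0.201 to 1.34 in the other high-fat rats and -0.607 to -0.0671 in normal rats. The part of these cells in the Hba-a3 value was not tested.

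For the membrane genes, Slc4a1, the chloride and bicarbonate exchanger band 3, was read by both of its probe sets. The brighter (1387656_at) had 11.045996, 11.045988, 11.046012 and 11.045942 in high-fat rats 1 to 4, against 11.045951, 11.045918, 11.045953 and 11.045949 in normal rats 1 to 4. High-fat rats 1 to 3 lay above every normal rat, and high-fat rat 4 lay among them. The difference was 4.13e-05 ± 1.61e-05 (SE), or 1.71 within-group SDs, with an unadjusted limma p of 0.0382 and an adjusted p of 1. Without high-fat rat 4 it was 3.65 within-group SDs (unadjusted limma p 0.00239). With each of the 7 other rats left out in turn it was 1.43 to 1.73, with unadjusted limma p from 0.0524 to 0.0937, the upper end without normal rat 2. The dimmer probe set (1369634_at) had 8.481069, 8.481056, 8.481145 and 8.481003 in high-fat rats 1 to 4, against 8.481027, 8.481010, 8.481111 and 8.480974 in normal rats 1 to 4. Here the groups overlapped throughout, and the difference of 3.77e-05 ± 3.88e-05 was 0.647 within-group SDs. Both differences turned sign when each array was centred on its median, at -2.47e-05 for the brighter and -2.82e-05 for the dimmer probe set. The probe sets put the rats in a similar order (Pearson r = 0.701, exact permutation p = 0.0556, Spearman rho = 0.833, exact permutation p = 0.0154, n = 8, 1 pair), and both had high-fat rat 3 highest. The r of deviations from the diet means was 0.683. Without the 2 rats farthest from the median of the brighter probe set (high-fat rats 3 and 1) r was 0.392. Without the 2 farthest from that of the dimmer one (high-fat rat 3 and normal rat 3) it was 0.765.

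Gypc, glycophorin C, had 7.2800, 7.2671, 7.2680 and 7.2677 in high-fat rats 1 to 4, against 7.2670, 7.2674, 7.2662 and 7.2665 in normal rats 1 to 4. High-fat rat 1 stood far above all others, rats 3 and 4 of that diet lay just above the highest normal rat, and rat 2 lay within the normal range. The mean was 7.2707 ± 0.00619 (SD, n = 4) in the high-fat group and 7.2668 ± 5.36e-04 in the normal group, a difference of 0.895 within-group SDs. Without high-fat rat 1 the difference shrank to 8.41e-04 in deposited units, against 0.00393 with it, while it was 1.65 within-group SDs, because the spread shrank too.

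Rhd, in human the carrier of the D blood group antigen, had 9.0776, 9.0757, 9.0787 and 9.0766 in high-fat rats 1 to 4, against 9.0703, 9.0724, 9.0726 and 9.0859 in normal rats 1 to 4. Normal rat 4 was the highest of all, and the 3 other normal rats lay below every high-fat rat. The mean was 9.0771 ± 0.00130 (SD, n = 4) in the high-fat group and 9.0753 ± 0.00716 in the normal group, a difference of 0.353 within-group SDs. Without normal rat 4 it was 4.18 within-group SDs (unadjusted limma p 0.00123, adjusted p 1.0), so 1 animal decided the size of this value. Without normal rat 1 the difference was 1.51e-04, against 0.00181 with all rats.

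Of the regulators, Hemgn had 10.0686, 10.0655, 10.0658 and 10.0653 in high-fat rats 1 to 4, against 10.0611, 10.0632, 10.0638 and 10.0626 in normal rats 1 to 4. It was the 1 member probe set of 8 in which all high-fat rats lay above all normal rats, an arrangement found in 0.586% of all probe sets (0.857% had all high-fat rats below). The difference was 0.00360 ± 9.10e-04 (SE), or 2.63 within-group SDs, with an unadjusted limma p of 0.00589 and an adjusted p of 1. High-fat rat 1 was the highest, and without it the value was 3.09 within-group SDs. Leaving out any other rat gave 2.37 to 2.89, and the unadjusted limma p was at most 0.0166 in all 8 cases. The erythroid marker list (7 of 8 measured) had scaled levels of -0.440 to 1.34 in high-fat rats and -0.607 to -0.0671 in normal rats, and its r with Hemgn over the 8 arrays was 0.618. None of these markers was called, and their part in the Hemgn difference was not tested.

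Klf1, which activates the beta globin gene, had 8.97186, 8.97156, 8.97187 and 8.97190 in high-fat rats 1 to 4, against 8.97143, 8.97156, 8.97150 and 8.97175 in normal rats 1 to 4. High-fat rats 1, 3 and 4 lay above all normal rats, and high-fat rat 2 lay level with normal rat 2. The difference was 2.35e-04 ± 9.82e-05 (SE), or 1.59 within-group SDs, with an unadjusted limma p of 0.0490 and an adjusted p of 1. Without high-fat rat 2 it was 2.94 within-group SDs and without normal rat 4 it was 2.32. With each of the 6 other rats left out in turn it was 1.30 to 1.45, with unadjusted limma p from 0.0887 to 0.118.

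**Figure D2:**
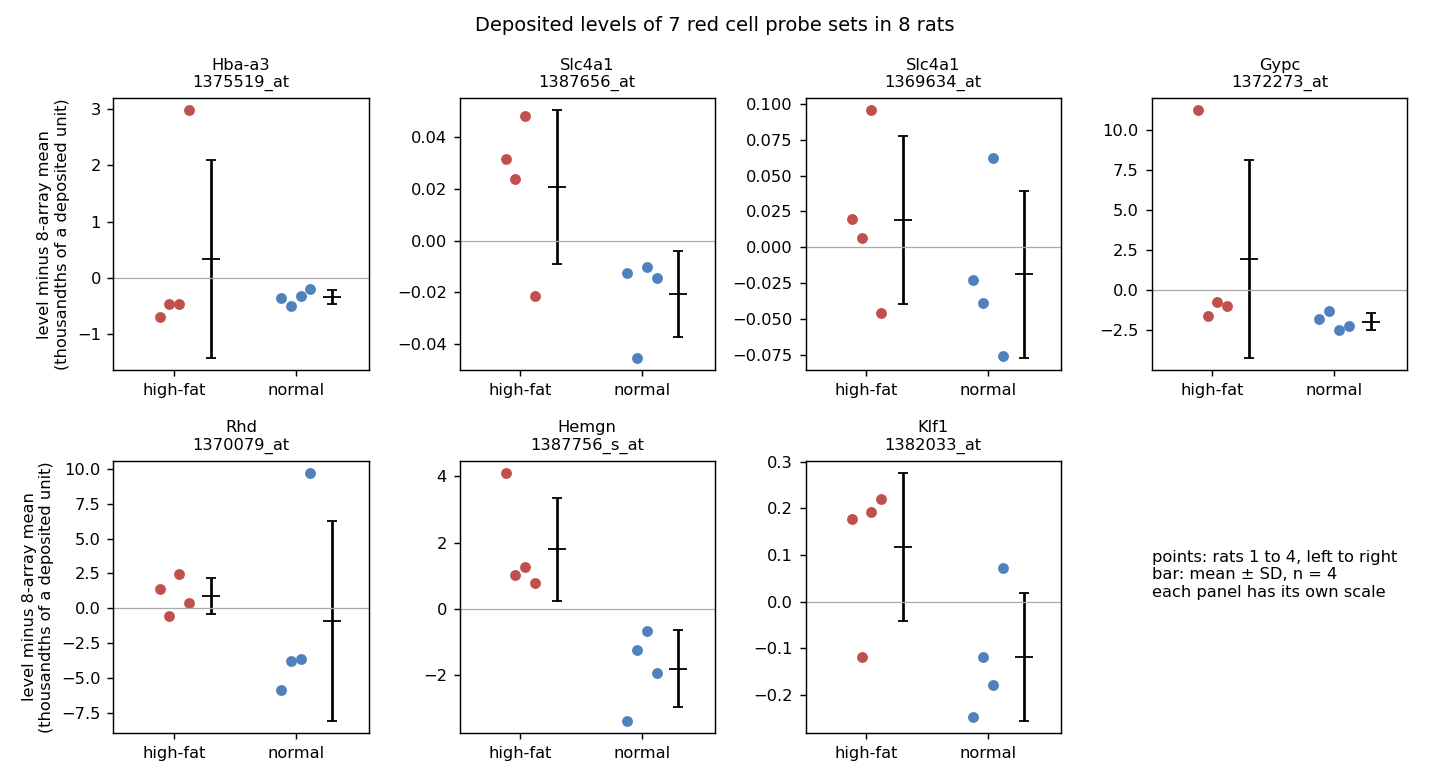
Deposited level minus the mean of the 8 arrays, in thousandths of a deposited unit (vertical axis, own scale in each panel), for 7 probe sets in high-fat (red, left) and normal rats (blue, right), with mean ± SD (n = 4). Hemgn is the panel without overlap, and single rats stand apart in Hba-a3 and Gypc (high-fat rats 4 and 1) and in Rhd (normal rat 4).

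Covariation over the 8 arrays was looked at for 21 gene pairs, each gene by its brightest probe set. In the 6 pairs with Hbb, r ran from -0.490 to 0.380 and turns on the last deposited digit. Of the 15 other pairs, 13 had r above 0, with a median of 0.408 and 4 above 0.6. That median was 0.207 without high-fat rat 3 and 0.211 when each gene was the mean of its probe sets. It was 0.117 without the 2 arrays farthest from the median of each pair's first gene, where first is only list order. Without the 2 arrays farthest from the median of each pair's second gene, the median r was 0.453. The closest pair was Gypc and Hemgn (r = 0.763, exact permutation p = 0.0134, adjusted p = 0.281 over 21 pairs; rho = 0.738, exact permutation p = 0.0458, adjusted p = 0.291, n = 8). It had r = 0.681 over the 6 arrays left without the 2 farthest from the Gypc median. In the high-fat rats alone its r was 0.993 and in the normal rats -0.261 (n = 4 each), and high-fat rat 1 was the highest in both genes. Rhd and Klf1 had r = 0.650 (exact permutation p = 0.0688, adjusted p = 0.330) and rho = 0.762 (exact permutation p = 0.0368, adjusted p = 0.291). With deviations from the diet means their r was 0.714, so this pair varied together within the diets as well. Without the 2 arrays farthest from the Rhd median it was 0.862, and without the 2 farthest from the Klf1 median it was 0.626. Hemgn with Klf1 (r = 0.659) and with Slc4a1 (r = 0.656) had r of 0.232 and 0.177 in deviations from the diet means. For Hba-a3, r was -0.320 with Slc4a1, -0.183 with Gypc, 0.0479 with Hemgn, 0.437 with Klf1 and 0.0608 with Rhd. In deviations from the diet means these were -0.785, -0.380, -0.392, 0.330 and 3.35e-04, in the same order. Hba-a3 with Slc4a1 had r = -0.933 in the high-fat rats alone and 0.803 in the normal rats (n = 4 each). The rho of Hba-a3 with Hemgn was -0.452, against an r just above 0. No pair had an adjusted p under 0.05 by either coefficient, while 1 pair by r and 2 by rho had an unadjusted exact p under 0.05. Over 15 pairs, the median r of deviations from the diet means was 0.177.

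**Figure D3:**
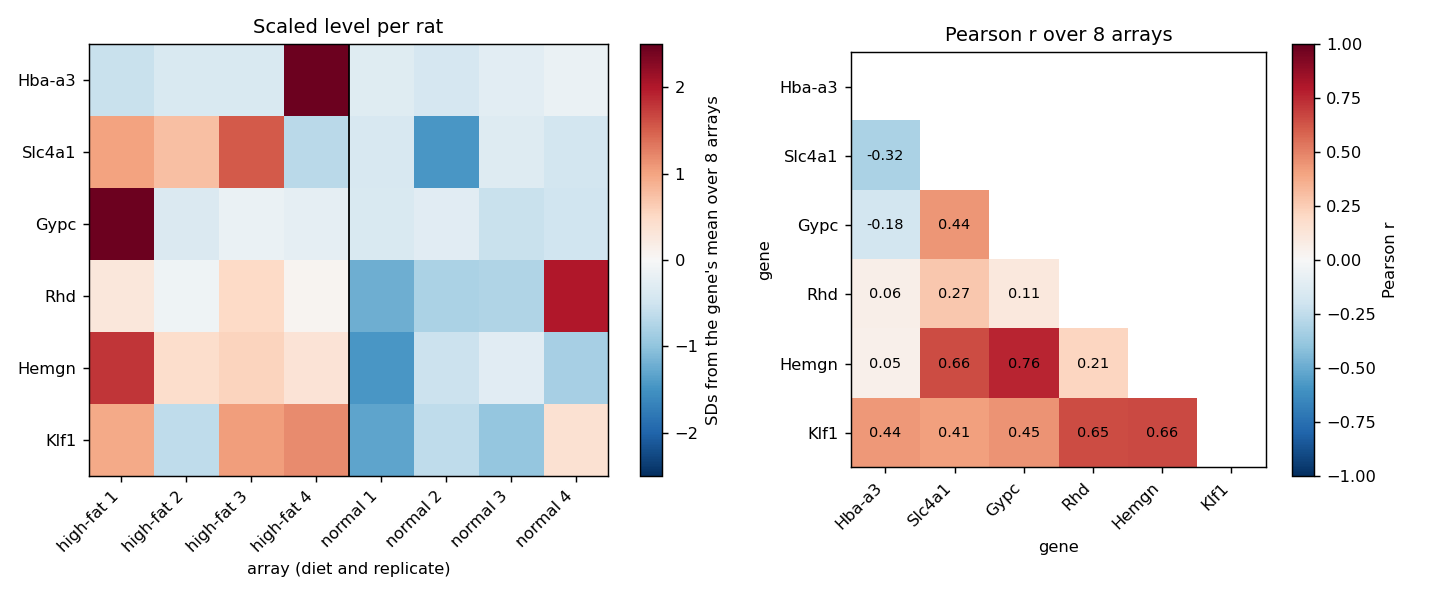
Left, scaled level of 6 member genes (rows) in each array (columns, high-fat left of the line), in SDs from the gene's mean over 8 arrays. Right, Pearson r over the 8 arrays for the 15 pairs, from -0.32 (Hba-a3 with Slc4a1) to 0.76 (Gypc with Hemgn).

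The genes whose pattern over the 8 arrays was most like the mean scaled level of the 7 members were Pttg1, the anaphase inhibitor securin (r = 0.946), Ahsp, the chaperone of free alpha globin (0.934), Pet100, an assembly factor of cytochrome oxidase (0.924), Sde2, a genome maintenance protein (0.923), and the mitochondrial nuclease Exog (0.918). They are the top 5 of 9288 genes above the median level, of which 10 had r above 0.9, and all share the same 8 arrays. Leaving Hbb out of the mean, a step added after seeing the data, kept Pet100 (0.964), Pttg1 (0.956), Exog (0.939) and Ahsp (0.923) among the first 5 and put Prdm1 (0.903) in place of Sde2.

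The other red cell genes are described by list, with no test between the lists. In 3 role lists 45 of 63 genes were measured, and 22 of these had the higher mean on the high-fat diet (11 with quantile normalization, 8 with arrays centred on their medians). Quantile normalization put some of the others at 0, among them Epb41, Stom and Nfe2. In the deposited values the median was -0.00516 within-group SDs, and 0 passed limma, with 0 also at an unadjusted p under 0.05. In the erythroid marker list, which shares Ahsp, Epb42 and Gata1 with these lists, 6 of 7 measured genes had the higher mean on the high-fat diet, with a median of 1.13 within-group SDs. The differences ran from -0.0264 for Gata1 to 1.40 for Ahsp, and 0 of 7 passed limma, adjusted or at an unadjusted p under 0.05. Over all probe sets 46.6% were higher. The natural killer cell and monocyte lists each had 5 of 5 measured genes higher, and the T cell list 0 of 6. With quantile normalization Ahsp and Epb42 stayed higher, Tfrc, Fech and Alas2 stood at 0, and Slc25a37 and Gata1 were lower. Among 5 other globin and globin chaperone genes, 2 were higher and the median was -0.102 within-group SDs. Ahsp had 10.9190, 10.9064, 10.9109 and 10.9110 in high-fat rats 1 to 4, against 10.9033, 10.9060, 10.9061 and 10.9092 in normal rats 1 to 4, a difference of 1.40 within-group SDs, and its groups overlapped. The embryonic globin Hbe1 stood at 1.26 within-group SDs (both adjusted p 1 by limma).

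Of 19 membrane and skeleton genes, 12 were higher, with a median of 0.206 within-group SDs. Tmod1, which caps actin filaments of the skeleton, stood at -1.52 and the urea transporter Slc14a1 at -1.21 (both adjusted p 1 by limma), while the dimmer probe set of Slc14a1 stood at 0.0413. Tmod1 also has 2 probe sets, of which only the brighter is given here. In 1 gene of this list, Kel, the Kell blood group protein, all high-fat rats lay above all normal rats, as in 0.586% of all probe sets. Kel is named after its values were seen. It has 2 probe sets, of which only the brighter is given here. It had 9.5266, 9.4979, 9.5035 and 9.5000 in high-fat rats 1 to 4, against 9.4943, 9.4968, 9.4975 and 9.4949 in normal rats 1 to 4, a difference of 1.18 within-group SDs (adjusted p 1 by limma). As in Gypc, Hemgn and Ahsp, high-fat rat 1 was the highest.

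Of 21 regulators, 8 were higher and the median was -0.0264 within-group SDs. The Myc antagonist Mxi1, given by the brighter of its 2 probe sets, stood at 1.25 and the cell cycle factor E2f4 at 1.49 (both adjusted p 1 by limma). With quantile normalization their differences were -2.21e-04 and -1.44e-04 in deposited units. Named after its values were seen, Gata1, the central erythroid factor that acts beside Klf1, stood at -0.0264 within-group SDs. Its mean was 8.063092 in the high-fat and 8.063093 in the normal group.

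**Figure D4:**
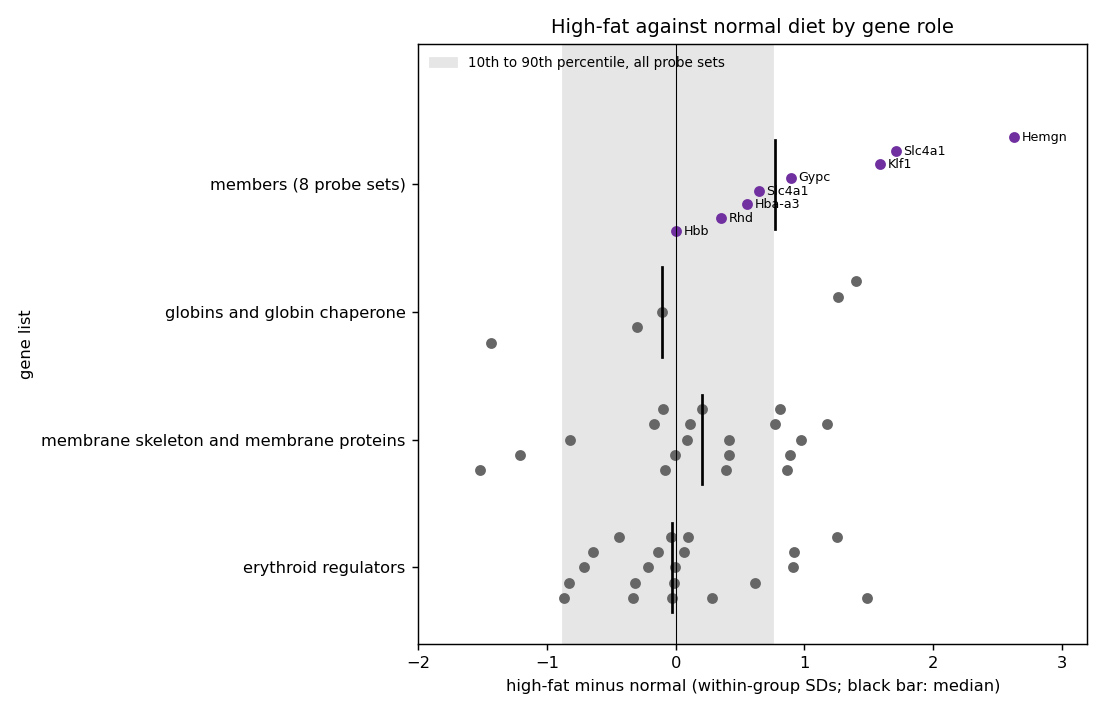
High-fat minus normal in within-group SDs (horizontal axis) for the 8 member probe sets and the genes of 3 role lists (rows), with the list median as a black bar and the 10th to 90th percentile of all probe sets (-0.877 to 0.759) in grey. The member median is 0.771, and the role lists have medians of -0.102, 0.206 and -0.0264.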

How the data were processed

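The deposited table gives 1 value per probe set and array, which reads as log2 intensity from its range. The authors' background correction, normalization and software are not given in the sources used here, nor is the log base. Per the labels' protocols, biotin-labelled RNA was made from 200 ng of total blood RNA with the Affymetrix 3' kit. Sample titles gave the group and replicate number, and replicates are called rats 1 to 4. The limma p-values set a difference against the spread of the deposited values between these samples, with SDs moderated over all probe sets.

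Of 31099 probe sets, 57 controls were left out of tests. The platform annotation gave 1 symbol to 20826 of the rest, several to 436 and none to 9780. R 4.3.3 ran limma 3.58.1 with no covariates and two-sided tests (lmFit, eBayes), which compared high-fat with normal over 31042 probe sets, with Benjamini-Hochberg adjustment and a threshold of 0.05, after a test on simulated data. Differences of at most 1e-12 counted as 0. Correlations used all 40320 pairings of 8 arrays, two-sided. The number of arrays limits the precision. Each listed gene was represented by its brightest probe set. Named beyond the members were the 2 genes per role list with the smallest p and the 5 genes most like the members' mean. The members and lists were chosen with earlier results of these data known. Alternatives were quantile normalization, median centring, probe sets above the median level, eBayes with trend and robust, the replicate number as a block, each array left out, and other choices for correlations.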

Additional observations from a re-analysis of the deposited data

Results flagged for a closer look

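In 6 of 14 groups of 4 rats, 1 rat stood apart from the 3 others by Dixon's ratio, over the 7 member probe sets other than Hbb. For normally distributed values, chance gives about 1 in 20 groups. The share of such groups over all probe sets was not taken, so the count cannot be read as a trait of the members. The member probe sets share the same 8 rats, so these groups are not independent. High-fat rat 4 stood apart in Hba-a3 at 13.70799 (others 13.70433 to 13.70455). High-fat rat 1 stood apart in Gypc at 7.27998 (others 7.2671 to 7.2680) and in Hemgn at 10.06859 (others 10.0653 to 10.0658). High-fat rat 2 stood apart in Klf1 at 8.97156 (others 8.97186 to 8.97190). Normal rat 4 stood apart in Rhd at 9.08595 (others 9.0703 to 9.0726), and normal rat 2 in the brighter Slc4a1 probe set at 11.045918 (others 11.045949 to 11.045953).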

How the results depend on the processing

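No member passed limma in any alternative (lowest adjusted p 0.191). Of 104 alternative values of member probe sets, 87 kept their direction, 6 reversed and 11 went to or from 0. The last were Hbb with centring and without each rat in turn, and Hba-a3 and the brighter Slc4a1 probe set with quantile normalization. Quantile normalization on top left 2 of 8 members higher, with Hemgn at -0.00142, Klf1 at -2.81e-04 and the dimmer Slc4a1 probe set at -5.54e-04. Hbb, Hba-a3 and the brighter Slc4a1 probe set then stood at 0. Quantile normalization called 32 probe sets, against 0 in the deposited values, and left 11 role-list genes higher. Among the called was 1 role-list gene, Stat5a. In the deposited values its difference was only -4.68e-07 (unadjusted limma p 0.786) and its groups overlapped, so the call rests on that step. Centring shifts every difference by -6.60e-05, which put the Slc4a1 probe sets at -2.47e-05 and -2.82e-05, and left 8 role-list genes higher with a median of -1.04. The cause of the other reversals was not tested. Among probe sets above the median level the role-list median was 0.0288. Leaving out 1 rat at a time gave 7 to 8 members higher, a member median of 0.678 to 1.22 (the highest without normal rat 4), a role-list median of -0.00524 to 0.174 and Hba-a3 at -1.90e-04 to 0.00103. In these counts Hbb was higher or lower by only 1.67e-09, which turns on its last deposited digit. Without high-fat rat 4, Hbb counted as higher in this way and Hba-a3 was lower. Replicate numbers were not taken to pair the rats. Deviations of same-numbered rats correlated at -0.121, 0.197, 0.355 and 0.140, so 3 of 4 exceeded 0.1, and rats 1 and 4 of the high-fat group correlated best with another number. With the replicate block 0 members passed, and the differences in deposited units stayed the same. Their sizes are here multiples of the SD left after diet and replicate number, which is another unit than the within-group SDs above. In that unit the member median was 1.30. The dimmer Slc4a1 probe set stood at 7.22 (unadjusted limma p 4.90e-04, adjusted p 1), against 0.647 within-group SDs without the block. Hemgn stood at 1.96 (unadjusted limma p 0.0377), the brighter Slc4a1 probe set at 1.73 (0.0542) and Klf1 at 1.69 (0.0572).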
